A study of Mus musculus with 10 samples.

Results

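The 10 heat shock chaperone genes Hspa1a, Hspa1b, Hspa8, Dnajb1, Hsp90aa1, Hsp90ab1, Hsph1, Hspd1, Hspe1 and Bag3 were taken from the count table by their symbols, out of 55487 genes in all, and each had 1 row. The libraries came from 5 male C57BL/6 mice of 8 to 12 weeks that carry Arg1tm1Lky, a reporter allele that makes yellow fluorescent protein (YFP) from the Arg1 locus. All mice had experimental autoimmune encephalomyelitis (EAE), a model of multiple sclerosis, and were taken at the peak of disease after immunization with a myelin peptide in adjuvant and pertussis toxin. From the digested spinal cord of each mouse, viable cells that were CD45+ and CX3CR1+ but negative for the T cell marker CD3 and the neutrophil marker Ly6G were sorted into 200000 YFP+ (ARG1+) and 100000 YFP- (ARG1-) cells, which gave 5 ARG1+ and 5 ARG1- libraries. The animals are called m2, m6, m234, m235 and m236, and both libraries of an animal carry its name. YFP reports the Arg1 locus and not the ARG1 protein, there were no healthy mice among the libraries, and the gate does not cleanly part monocyte-derived cells from macrophages of the borders of the central nervous system or from microglia.

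Heat shock proteins are chaperones that help other proteins to fold, keep damaged proteins from clumping and pass them on for repair or degradation. HSP70 proteins bind unfolded stretches, J proteins such as DNAJB1 deliver clients to them and start the hydrolysis of ATP, nucleotide exchange factors such as HSPH1 and BAG3 release the client, and HSP90 takes over nearly folded clients such as kinases and steroid receptors. Some of the genes are always on at a high level (Hspa8, Hsp90ab1), whereas others are switched on within minutes when heat shock factor HSF1 binds heat shock elements in their promoters (Hspa1a, Hspa1b, Dnajb1, Hsph1). In myeloid cells these genes are also known to respond to fever, to inflammation and to the handling of tissue.

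Up to 250 bases before the RefSeq start (GRCm38.p6), cut where an exon begins, are shown for the inducible HSP70 genes, whose levels varied most among the animals, and for Hsph1, whose exons share no 50-base run with any other gene. A shorter stretch is shown between Hspd1 and Hspe1, which are read in opposite directions from a shared promoter. Capitals mark matches to GAANNTTC or TTCNNGAA, which are 2 alternating units of the heat shock element at the usual spacing. Each of these motifs is its own reverse complement, so that both strands were searched at once.
Hspa1a, minus strand of chr17:34972157-34972406: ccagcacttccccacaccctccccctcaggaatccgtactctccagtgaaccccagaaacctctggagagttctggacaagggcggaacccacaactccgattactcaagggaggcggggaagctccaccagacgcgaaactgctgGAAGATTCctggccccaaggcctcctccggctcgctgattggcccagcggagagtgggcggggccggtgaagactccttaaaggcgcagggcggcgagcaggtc
Hspa1b, minus strand of chr17:34959239-34959488: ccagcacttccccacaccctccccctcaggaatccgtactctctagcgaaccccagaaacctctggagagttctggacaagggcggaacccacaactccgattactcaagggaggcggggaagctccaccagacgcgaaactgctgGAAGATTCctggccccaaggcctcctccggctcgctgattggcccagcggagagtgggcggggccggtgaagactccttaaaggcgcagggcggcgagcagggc
Hsph1, minus strand of chr5:149636339-149636586: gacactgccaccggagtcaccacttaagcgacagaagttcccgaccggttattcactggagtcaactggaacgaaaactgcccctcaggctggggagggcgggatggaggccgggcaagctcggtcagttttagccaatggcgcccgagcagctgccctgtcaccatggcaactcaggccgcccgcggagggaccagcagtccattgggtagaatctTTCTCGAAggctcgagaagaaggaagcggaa
Hspe1, plus strand of chr1:55088025-55088131: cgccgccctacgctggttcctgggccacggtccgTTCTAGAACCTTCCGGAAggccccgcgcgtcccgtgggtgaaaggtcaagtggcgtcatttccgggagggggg
The windows of Hspa1a and Hspa1b were the same at 247 of 250 bases, with a single match each at 104 to 97 bases before the start. Hsph1 had a match at 33 to 26 bases before its start. The stretch upstream of Hspe1 held overlapping matches that formed an alternating run of at least 3 units, 89 to 72 bases before the start, and the same letters lay in a window of Hspd1. In Dnajb1 and Bag3 these letters were not found. Of the 7 members with a window in the table, 5 had a match of 2 units, against 14.6% of all 27025 genes with such a window, and 2 had a run of 3 units, against 0.514%. These counts are not of separate sequences, since the windows of Hspa1a and Hspa1b are nearly the same and Hspd1 and Hspe1 share their run. A match to the letters describes the sequence only.

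The sort was checked first. Arg1, the targeted gene of the reporter, stood at 587 to 1047 CPM (the count divided by the TMM-scaled library size and set to a common depth) in the ARG1+ libraries and at 14.3 to 26.9 CPM in the ARG1- libraries, with a log2 fold change of 5.45 ± 0.21 (SE) and an edgeR FDR of 1.1e-07. Total counts were 28870482 to 33826355 in the ARG1+ and 8396863 to 35455643 in the ARG1- libraries, the lowest being the ARG1- library of m234. All 10 members passed the filter of CPM above 1 in at least 3 libraries, 13740 genes were tested, and the lowest count of a member, Hspe1 in the smallest library, was 450. Lyz2, Cd68 and Itgam, markers of myeloid cells, stood at 6218 CPM or more, 540 CPM or more and 379 CPM or more in every library, and were higher in ARG1+ cells. Of the 7 genes of the sorted cells, 4 were higher and 3 lower in the fit blocked by animal. The lower ones, in all 5 animals, were the gate genes Cx3cr1 (means of 139 CPM in ARG1+ and of 281 CPM in ARG1- cells, blocked log2 fold change -0.97, edgeR FDR 9.2e-05) and Ptprc (-0.22, FDR 0.00192), and Csf1r (-0.19, FDR 0.0153).

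With the animal taken into account, 6 of the 10 chaperone genes were lower in ARG1+ than in ARG1- cells, by 10.9% to 19.3%, and none passed the test when the libraries were treated as independent. The inducible members differed more between animals than between the sorted populations. When the 10 libraries were treated as independent, 0 of 10 members were called in either direction by edgeR at an FDR below 0.05, against 6.82% of all tested genes called higher and 6.15% called lower. At an unadjusted edgeR p below 0.05, 3 were lower and 0 higher, but the share of all tested genes under that limit was not counted. DESeq2 called 2 lower (Hspa8 and Hsp90ab1) and limma-trend 0, with 0 higher by either. Of all 13740 tested genes they called 1307 and 841 lower. All 10 log2 fold changes were nonetheless below 0, with a median of -0.19 against -0.00222 over all tested genes. Both libraries of a pair came from the same mouse, so the animal was added to the model as a block. In that fit 6 of 10 members were lower in ARG1+ cells (Hspa1b, Hspa8, Dnajb1, Hsp90ab1, Hsph1 and Hspe1) and 0 were higher, where 18.3% of all tested genes were lower and 16.8% higher. No member changed by an absolute log2 fold change above 1, the limit that the study set. Among the 10 members, 7 were lower in the ARG1+ library of all 5 animals, a pattern that 21.0% of the tested genes had. The groups themselves overlapped for all 10 members: in 0 of them was every ARG1+ library below every ARG1- library, against 5.20% of the tested genes.

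**Figure D1:**
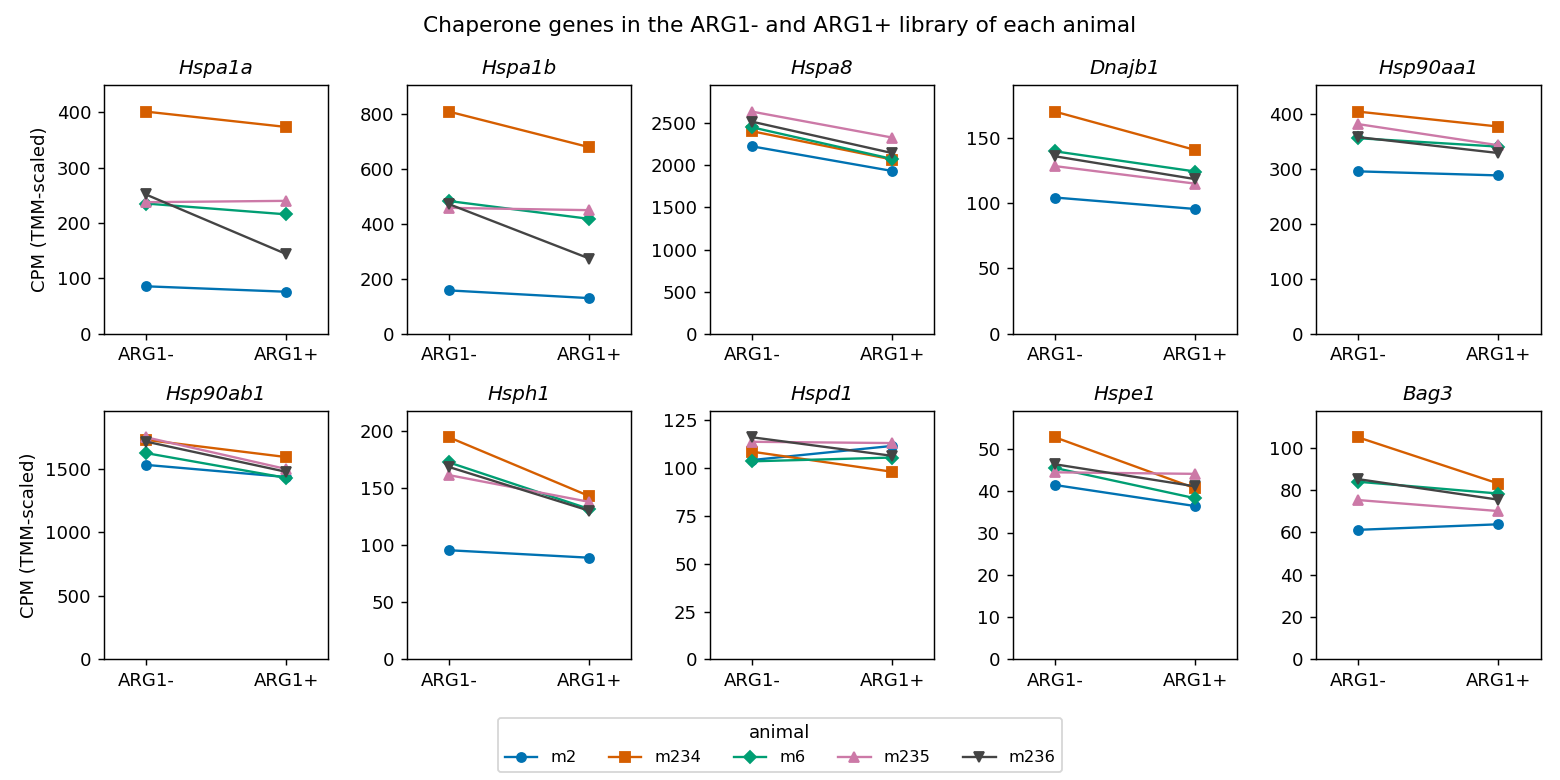
CPM (vertical axes, from 0, on TMM-scaled library sizes) of each chaperone gene in the ARG1- and ARG1+ library of the same animal, joined by a line per animal. Most lines fall gently from ARG1- to ARG1+, while for Hspa1a and Hspa1b the lines of the animals are spread widely, with m2 at the bottom and m234 at the top (76.0 to 401 CPM for Hspa1a).

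Hspa8, on chromosome 9 (chr9:40800984-40810087, GRCm38, plus strand), encodes HSC70, the HSP70 that is always present and that uncoats clathrin vesicles and guides proteins into lysosomes. It stood at 1931 CPM in m2, 2067 in m234, 2074 in m6, 2327 in m235 and 2144 in m236 among the ARG1+ libraries, and at 2224, 2403, 2450.0, 2636 and 2517 CPM in the ARG1- libraries of the same animals. Within every animal the ARG1+ library was the lower, but the ARG1+ library of m235 was above the ARG1- library of m2, so the groups overlapped. The means were 2109 ± 145 and 2446 ± 152 CPM (SD, n = 5 each). The log2 fold change was -0.21 ± 0.07 (SE) with an FDR of 0.0665 without the block, and -0.21 ± 0.04 with an FDR of 0.00185 with it, a reduction of 13.8%. The 5 within-animal log2 ratios were close together, from -0.24 in m6 to -0.18 in m235.

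Hsp90ab1 (chr17:45567775-45573271, minus strand) is the constitutive HSP90. Its ARG1+ libraries held 1436 (m2), 1594 (m234), 1430 (m6), 1499 (m235) and 1477 CPM (m236), and the ARG1- libraries 1532, 1729, 1625, 1750 and 1716 CPM. The ARG1+ library was again lower in all 5 animals, with an overlap only through the ARG1+ library of m234 and the ARG1- library of m2. The blocked log2 fold change was -0.17 ± 0.04 (FDR 0.00906, edgeR), and it was -0.17 ± 0.06 (FDR 0.0915) without the block. Hsp90aa1, the HSP90 that rises with stress, had means of 336 ± 32.0 and 359 ± 40.6 CPM (SD, n = 5 each). It was lower in the ARG1+ library of all 5 animals as well, yet it did not pass the limit in either fit, with a blocked log2 fold change of -0.10 ± 0.03 and an FDR of 0.0556.

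The inducible HSP70 genes Hspa1a and Hspa1b, which are single-exon genes on the minus strand of chromosome 17 (chr17:34969190-34972156 and chr17:34956436-34959238), varied most. Hspa1b stood at 130 CPM in m2, 274 in m236, 419 in m6, 450 in m235 and 680 in m234 among the ARG1+ libraries. In the ARG1- libraries it stood at 158, 472, 484, 459 and 809 CPM in the same order of animals. In both populations m2 was the lowest and m234 the highest, 5.23 times apart in ARG1+ and 5.12 times in ARG1- cells, where the median gene differed by 1.29 and 1.34 times between the extremes of a group. The ARG1+ library was lower in 5 of 5 animals, and the blocked log2 fold change of -0.31 ± 0.09 passed the limit (FDR 0.0200), whereas the fold change without the block, -0.28 ± 0.43, did not (FDR 0.697). The size of that difference leaned on m236, whose log2 ratio was -0.79 while those of the other animals lay between -0.28 and -0.03. Without both libraries of m236 the blocked log2 fold change was -0.19 (FDR 0.0203), and without those of m2 it was -0.32 with an FDR of 0.0642.

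Hspa1a ran in parallel at a lower level. Its ARG1+ libraries held 76.0 (m2), 144 (m236), 216 (m6), 240 (m235) and 374 CPM (m234), and its ARG1- libraries 85.8, 252, 235.3, 238 and 401 CPM. It was lower in the ARG1+ library of 4 of 5 animals and close to equal in m235, where the log2 ratio was 0.01. The blocked log2 fold change was -0.24 ± 0.10 (FDR 0.0855), and -0.10 without m236. The ratio of Hspa1b to Hspa1a counts stayed between 1.71 and 2.06 in all 10 libraries. These genes share 1716 runs of 50 bases, which is 58.8% of the runs of Hspa1a and 62.3% of those of Hspa1b, so reads of the length used here cannot always be told apart. The antisense gene Gm20481 overlaps 19.0% of the exon of Hspa1a, and if counting disregarded the strand, which was not stated, reads in that stretch would have gone uncounted as ambiguous. With their counts summed into 1 row, the log2 fold change was -0.26 ± 0.42 (FDR 0.721) without and -0.29 ± 0.09 (FDR 0.0339) with the block.

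Hsph1 (chr5:149614287-149636376, minus strand) encodes HSP110, which resets HSP70 by exchanging its nucleotide. Its ARG1+ libraries stood at 88.9 (m2), 143 (m234), 131 (m6), 138 (m235) and 130 CPM (m236), and the ARG1- libraries at 95.5, 194, 172, 161 and 168 CPM. It had the largest reduction of the members without the block (log2 fold change -0.32 ± 0.17, FDR 0.231), and with the block the reduction was 19.2% (-0.31 ± 0.05, FDR 0.00122). The difference was smallest in m2, the animal with the lowest level, at -0.10, and lay between -0.44 and -0.23 in the other animals.

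Dnajb1, the J protein that works with inducible HSP70, stood at 95.5 (m2), 141 (m234), 124 (m6), 115 (m235) and 118 CPM (m236) in ARG1+ and at 104, 170, 140, 128 and 136 CPM in ARG1- libraries. It was lower in all 5 ARG1+ libraries of the pairs, by 12.03% with the block (-0.18 ± 0.03, FDR 0.00267, against 0.331 without). Bag3, which couples HSP70 to the autophagy of damaged proteins, had 63.8 to 83.1 CPM in ARG1+ and 61.2 to 105 CPM in ARG1- libraries. It was lower in 4 of 5 animals, with m2 as the exception, and did not pass in either fit (blocked log2 fold change -0.13 ± 0.05, FDR 0.0773).

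In the mitochondrial chaperonin, 1 of the 2 genes was lower with the block. Hspe1 encodes HSP10, the lid of the HSP60 barrel, and Hspd1 encodes the barrel itself. Hspe1 stood at 36.5 (m2), 40.7 (m234), 38.3 (m6), 44.2 (m235) and 41.2 CPM (m236) in ARG1+ and at 41.5, 52.9, 45.6, 44.5 and 46.4 CPM in ARG1- libraries, lower in all 5 pairs, with a blocked log2 fold change of -0.19 ± 0.05 (FDR 0.0157). Without m2 the blocked FDR was 0.0544 and without m6 it was 0.0634. Hspd1 ranged from 98.1 to 113 CPM in ARG1+ and from 104 to 116 CPM in ARG1- libraries, lower in 3 of 5 animals, with a blocked log2 fold change of -0.03 ± 0.04 (FDR 0.643). Whether Hspe1 and Hspd1 differed from each other in their change was not tested.

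**Figure D2:**
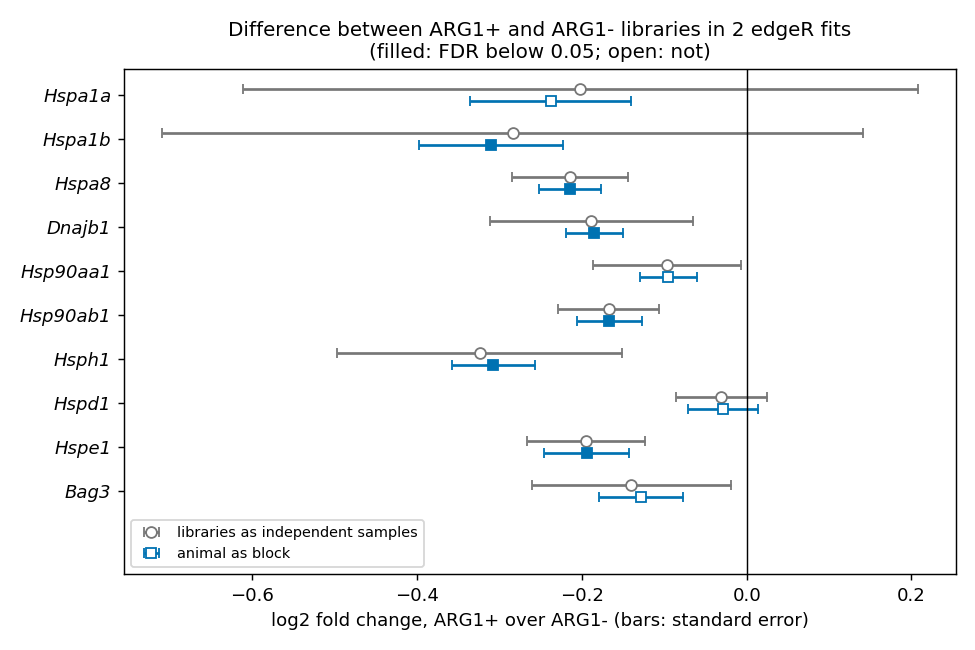
Log2 fold change of ARG1+ over ARG1- (horizontal axis) with its standard error in the edgeR fit with independent libraries (gray circles) and with the animal as a block (blue squares), filled where the FDR is below 0.05. The estimates hardly move between the fits, and the bars shrink most for Hspa1a and Hspa1b, from 0.41 to 0.10 and from 0.43 to 0.09.

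The blocked calls of Hspa8, Hsp90ab1, Hsph1 and Dnajb1 held with both libraries of each animal left out in turn, with the highest FDR at 0.0487 for Hsp90ab1. On single values, a 2-sided exact permutation test of log2 CPM over 5 against 5 libraries, which disregards the pairs, gave an unadjusted p of 0.0159 for each of Hspa8, Hsp90ab1 and Hspe1 and of 0.206 to 0.595 for the other 7 members. The smallest p that this design allows is 0.00794. The microglia list moved with the comparison. Its 6 genes summed to 685 to 981 CPM in the ARG1+ and 725 to 2253 CPM in the ARG1- libraries, the highest being the ARG1- library of m234, which also had the highest Hspa1a, Hspa1b, Dnajb1, Hsp90aa1, Hsph1, Hspe1 and Bag3. The 7 dendritic cell genes summed to 17.0 to 30.2 and 29.3 to 103 CPM. Siglech, which stands in both lists, made up 70.8 of the 103 CPM in the ARG1- library of m234, so these sums are not separate measures. Flt3, Ccr7 and Zbtb46 of the dendritic list were lower in ARG1+ cells, at means of at most 7.26 CPM. Their log2 fold changes were -3.59, -2.76 and -1.65 (edgeR FDR 0.000240, 0.000203 and 0.00408). The other tested genes of that list, Siglech (-1.57, FDR 0.0823) and Clec9a (0.28, FDR 0.547), were not called without the block. Clec9a, with a mean of 13.9 CPM over the ARG1+ libraries against 11.7 CPM over the others, was lower in ARG1+ cells of only 1 animal. The 6 genes of border macrophages summed to 699 to 1361 and 322 to 802 CPM. Most of each sum was F13a1, whose mean was 1019 CPM over the ARG1+ libraries against 594 CPM over the others. Without the block F13a1 was not called (log2 fold change 0.78, edgeR FDR 0.0511), while Mrc1 and Pf4 were higher (1.16 and 1.88, FDR 0.0320 and 0.00324). With the block F13a1 was higher in ARG1+ cells as well (0.82, edgeR FDR 1.6e-05). Cd163, Lyve1 and Cbr2 stayed below the filter, with Cd163 at most at 0.130 and Lyve1 at most at 0.228 CPM. The 5 B cell genes summed to 1.94 to 4.27 CPM in ARG1+ and 4.35 to 10.8 CPM in ARG1- libraries, without overlap, and Jchain among them was lower (-2.87, FDR 0.0184). The other tested B cell gene, Cd79b, was not called (0.08, edgeR FDR 0.921). S100a9, a neutrophil gene, was lower as well (-3.40, FDR 0.00977). T cell genes summed to at most 1.86 CPM and neutrophil genes to at most 31.6 CPM, and Cd3e and Ly6g each stayed at or below 0.233 CPM. Genes of oligodendrocytes summed to 103 to 152 CPM and those of astrocytes, neurons and endothelium to 6.85 to 14.5 CPM. The part of these cell types in the chaperone differences was not tested. Without both libraries of m234, 7 members were lower with the block, as were 2823 of all 13589 genes tested there. In bulk libraries fewer cells of a type and less RNA per cell cannot be told apart.

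The level of the inducible genes went with the animal. In the blocked fit an F test over the animal terms, added after the values had been seen, passed an FDR of 0.05 for 6 of 10 members, against 20.8% of all tested genes. These were Hspa1b (FDR 0.000189), Hspa1a (0.000339), Dnajb1 (0.000927), Hsph1 (0.00100), Hsp90aa1 (0.00580) and Bag3 (0.00868). The same 6 genes had their lowest value in m2 and their highest in m234 in both the ARG1+ and the ARG1- libraries. The share of all tested genes with this order was not counted, so whether it is particular to these genes is not known. The animal took up 93.9% of the sum of squares of log2 CPM for Hspa1a and the sorted population 2.47%. For Hspa8 the order was reversed, with 37.6% for the animal and 61.8% for the population, and for Hsp90ab1 the shares were 31.1% and 62.7%. Over 13696 genes with counts in every library the medians were 51.4% and 20.2%.

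The size of these deviations differed among the genes. In m2, log2 CPM of Hspa1b was 1.42 below the mean of the ARG1- libraries and 1.39 below that of the ARG1+ libraries, and in m234 it was 0.939 and 0.998 above. Hsph1 was lower by 0.69 and 0.48 in m2 and higher by 0.33 and 0.20 in m234. Hspa1a and Hspa1b together amounted to 10.7% and 10.97% of the counts of Hspa8 in the ARG1+ and ARG1- libraries of m2, and to 51.0% and 50.4% in those of m234. The other 3 animals lay between 19.5% and 30.6%. The methods name alternative digestions of the tissue (a kit or an enzyme medium) and alternative sources of pertussis toxin without assigning them to animals, and whether handling differed among these animals was not tested.

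**Figure D3:**
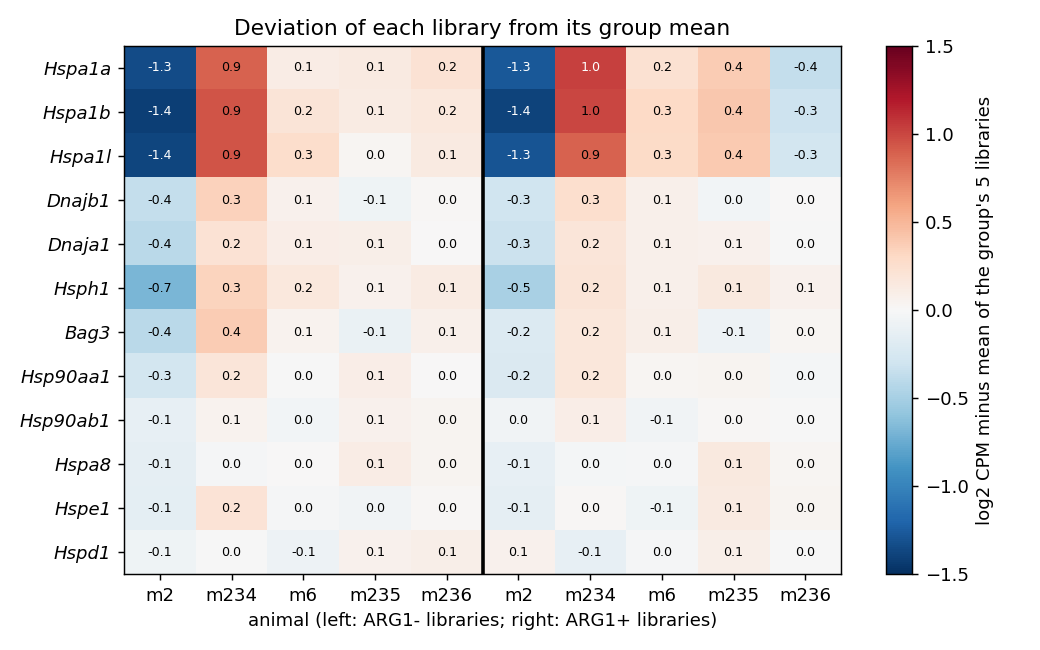
Log2 CPM of each gene (rows) in each library (columns) minus the mean of the 5 libraries of its group, with red above and blue below the mean. The columns of m2 are blue and those of m234 red in both groups for Hspa1a, Hspa1b, Hspa1l, Dnajb1, Dnaja1, Hsph1, Bag3 and Hsp90aa1, and the rows of Hspa8, Hsp90ab1, Hspe1 and Hspd1 are pale.

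The genes most like the mean deviation of Hspa1a, Hspa1b, Dnajb1 and Hsph1 over the 10 libraries of 5 animals, among genes that were no members, were Hspa1l (Pearson r 0.998), Gm4951 (0.988), Dnaja1 (0.979), the processed pseudogene Gm7816 (0.968) and Mafk (0.961). These values describe likeness only, since libraries of an animal are not independent. Hspa1l is an HSP70 gene next to Hspa1a on the opposite strand, mostly known from the testis. It held 24.5% to 30.02% of the counts of Hspa1a in every library, and 9.58% of its 50-base runs occur in Hspa1a. Since 71.9% of the exons of Hspa1l overlap the antisense gene Gm10501, its level also depends on whether counting used the strand. Dnaja1, a further J protein of HSP70, stood at 180 (m2) to 256 CPM (m234) in the ARG1+ and 193 (m2) to 298 CPM (m234) in the ARG1- libraries. It was lower in all 5 ARG1+ libraries, with a blocked FDR of 0.00234. Gm7816 shares 68.0% of its 50-base runs with Dnaja1, so its counts may be reads of that gene.

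Per kilobase of exon, the levels formed the same order in both populations. Hspa8 was the highest at 881 ± 60.4 CPM per kb in ARG1+ and 1022 ± 63.4 in ARG1- cells (SD, n = 5 each), followed by Hsp90ab1 at 590 ± 26.2 and 663 ± 36.0 CPM per kb. Neither overlapped with the gene below it in the order. Hspa1b (139 ± 73.4 and 170 ± 82.2 CPM per kb), Hsp90aa1 (99.3 ± 9.47 and 106 ± 12.02) and Hspa1a (70.7 ± 37.7 and 81.7 ± 37.7) came next, and each overlapped with its neighbour. Hspe1, at 51.9 ± 3.77 and 59.7 ± 5.39 CPM per kb, was above Hspd1, at 44.2 ± 2.45 and 45.1 ± 2.32, without overlap. Dnajb1, Hsph1 and Bag3 were the lowest and overlapped, with means from 28.9 to 42.4 CPM per kb. As a single row, an inducible HSP70 gene reached at most 289 CPM per kb, Hspa1b in the ARG1- library of m234, against at least 807 for Hspa8 in any library. Hspa1a stood at 135 CPM per kb in that library, and the counts of both rows together were 50.4% of those of Hspa8 there.

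**Figure D4:**
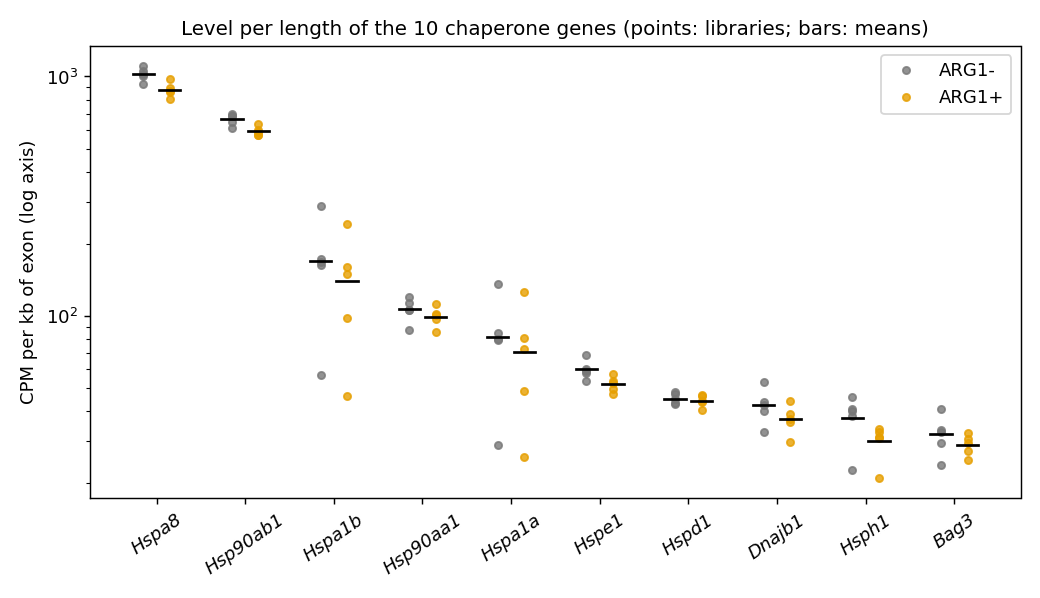
CPM per kb of exon (log axis) of the 10 members in the 5 ARG1- (gray) and 5 ARG1+ (orange) libraries, with the mean as a bar. Hspa8 and Hsp90ab1 stand apart from the others, and the points of Hspa1a and Hspa1b are the most spread.

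Several members share sequence with other rows of the table. The 11 rows on other chromosomes that share 50-base runs with Hspa8, all processed pseudogenes, held 76.5% to 82.9% as many counts as Hspa8 itself, and the 3 such rows of Hsp90aa1 held 63.0% to 66.9% of its counts. For Hspe1 the share of 2 rows was 23.1% to 32.6%, for Hspd1 the share of 3 rows was 14.5% to 20.9%, and for Hsp90ab1 it was at most 3.64%. Which of these counts came from the members was not tested. With these rows added to the members, 6 of 10 were again lower with the block and 0 without it, and the blocked log2 fold change of Hspa8 was -0.21 ± 0.04 (FDR 0.00312). Hsph1 and Bag3 share no 50-base run with another gene and Dnajb1 shares 0.412% of its runs.

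Beyond the members, 102 further chaperone and co-chaperone genes stood in 8 lists, with each gene counted once in this total. Some of them, such as Dnaja1, Hspa4l, Stip1 and Ahsa1, stood in 2 lists and are counted in both below. Of the 102 genes, 98 were tested, and 2 were higher (Hspa4l and Afg3l2) and 2 lower (Dnajb5 and Ppid) without the block, with a median log2 fold change of -0.01. With the block 15 were higher and 17 lower, shares near the 16.8% and 18.3% of all tested genes. An animal difference was called for 28, against 20.8% of all tested genes. Hsf1, the factor itself, averaged 31.3 ± 1.04 CPM in the ARG1+ and 31.6 ± 2.70 CPM in the ARG1- libraries (SD, n = 5 each), with an FDR of 0.843, and its animal FDR was 0.858. Hsbp1, a binding partner that holds HSF1 in check, was the most abundant of the 4 genes around the factors (80.9 and 78.2 CPM), and Hsf4 had the largest change at about 1 to 2 CPM (log2 fold change 0.76 ± 0.29, FDR 0.0991, with the block 0.0370).

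Among 15 other targets of HSF1, 13 were tested, 1 was higher without the block and 3 were higher and 3 lower with it, where 16.8% and 18.3% of all tested genes were. The lower ones were Dnaja1 and the HSP90 partners Stip1 and Ahsa1, with blocked log2 fold changes of -0.19, -0.12 and -0.14. The higher ones were Hmox1, Hspa4l and Zfand2a. Hmox1 encodes heme oxygenase, which is also driven by oxidative stress and heme, and averaged 782 and 565 CPM in the 2 populations (ARG1+ first, here and in the pairs of means that follow), with a log2 fold change of 0.47 ± 0.16 (FDR 0.0677, with the block 0.000532). Hspa4l, an HSP110, had a log2 fold change of 0.31 ± 0.08 (FDR 0.0322). The small heat shock genes Hspb1 and Hspb8 stayed below the filter.

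Of 8 other genes of the HSP70 and HSP110 families, 6 were tested and 1 was higher and 0 lower without the block and 1 higher and 1 lower with it, beside 16.8% and 18.3% of all tested genes. Hspa4 was the most abundant at 215 and 217 CPM. Among 21 J proteins 0 were higher and 1, Dnajb5, was lower (log2 fold change -0.38 ± 0.11, FDR 0.0368), while 2 were higher and 5 lower with the block, against 16.8% and 18.3% of all tested genes. Dnaja4 had the largest log2 fold change of the J proteins, -1.28 (FDR 0.176), with means of 0.845 CPM for ARG1+ against 2.40 CPM for ARG1- cells, and its ARG1- library of m234 stood at 6.93 CPM where the other 4 lay between 0.321 and 1.87 CPM. Of 19 co-chaperones, Ppid, an immunophilin of HSP90, was lower (-0.24 ± 0.06, FDR 0.0344), and 2 were higher and 5 lower with the block, as before against 16.8% and 18.3%. Bag6 was their most abundant gene at 191 and 183 CPM. Fkbp5, an immunophilin that glucocorticoids induce, differed between animals with the lowest FDR of the chaperone lists, 2.0e-05, but in another order than the members, with m236 the highest in both populations (151 and 157 CPM) and m2 and m234 the lowest.

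The 14 genes of the cytosolic chaperonin TRiC and of prefoldin, which fold actin and tubulin, had 0 calls without the block and 1 higher and 5 lower with it, where 16.8% and 18.3% of all tested genes were. Cct2 was the most abundant (205 and 217 CPM) and Pfdn1 had the largest change (0.23 ± 0.10, FDR 0.161). Of 15 genes of mitochondrial proteostasis, 1 was higher without the block and 3 were higher and 0 lower with it, against 16.8% and 18.3% of all tested genes. Afg3l2, a protease of the inner membrane, was higher in ARG1+ cells, at 63.4 against 48.5 CPM (log2 fold change 0.39 ± 0.08, FDR 0.00709), and the mitochondrial HSP70 Hspa9 stood at 233.9 and 229 CPM. Among 13 chaperones of the endoplasmic reticulum 0 passed without the block and 3 were higher and 1 lower with it, again beside 16.8% and 18.3% of all tested genes. Hspa5 (BiP) stood at 1755 and 1736 CPM with an FDR of 0.905, and the disulfide isomerase Pdia4 had a log2 fold change of 0.32 ± 0.11 (FDR 0.0690, with the block 9.4e-05).

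Immediate early genes, which like heat shock genes are known to respond to the dissociation of tissue, were examined beside the members. Of 16 genes 3 were higher in ARG1+ cells (Fos, Fosb and Ier3) and 2 lower (Jund and Klf2) without the block, against 6.82% and 6.15% of all tested genes, and 7 were higher and 6 lower with it, against 16.8% and 18.3%. Fosb was the most abundant, at 1501 and 1195 CPM with a log2 fold change of 0.33 ± 0.08 (FDR 0.0240). Klf2, a factor that keeps macrophages quiescent, had the largest change (-0.92 ± 0.26, FDR 0.0387). An animal difference was called for 11 of the 16, against 20.8% of all tested genes.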

How the data were processed

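RNA was measured in 10 libraries of sorted spinal cord cells, 5 ARG1+ and 5 ARG1-, grouped by their GEO labels. The values are counts per Ensembl gene, deposited by the authors without normalization. The authors read 50 bases from 1 end of strand-specific libraries, aligned the reads to GRCm38 with STAR (2.7.10b per the submitters' processing notes) and counted primary alignments on Ensembl transcripts with summarizeOverlaps in Union mode. Whether counting used the strand was not stated. A read of a repeated sequence is counted at its primary alignment, so near-identical genes share reads.

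The filter asked for more than 1 CPM in 3 or more libraries. The test was edgeR's quasi-likelihood F test (edgeR 4.0.16, R 4.3.3), TMM-scaled and with the libraries as independent, and a call needed a Benjamini-Hochberg adjusted p (FDR) under 0.05 across the tested genes. Alternatives were the animal as a block, DESeq2 1.42.0, limma-trend (limma 3.58.1, prior counts 2 and 0.5), other library sizes and filters, Hspa1a and Hspa1b summed, and each library or animal left out. The pairing comes from the sample titles, in which both libraries carry the animal's name. Residuals from the group means correlated at 0.361 to 0.664 across genes within an animal and at most 0.0675 between animals. SE of edgeR is the fold change divided by the root of F. Exon lengths, overlaps and 50-base runs came from GENCODE vM21 (GRCm38), and rows sharing at least 25 runs were listed. Fits were tested on simulated data. Promoters are RefSeq sequences. Libraries held 8396863 to 35455643 counts. The 10 members and the lists were chosen with earlier results of these data known. Named genes are the members, Arg1, the most abundant and most changed gene of each chaperone list, and the 5 genes most like the inducible members. Others named were chosen after their values were seen, and some results are not reported here. The p-values without the block rest on the spread among the 5 libraries of each group, taken as independent. Those of the population difference with the block rest on how far the within-animal differences of the 5 animals varied.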

Additional observations from a re-analysis of the deposited data

Results flagged for a closer look

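Of the 20 groups of 5 libraries formed by the 10 members in ARG1+ and ARG1- cells, 1 held a library that lay far from the others by Dixon's test at the 95% level, about as many as chance flags at 1 in 20 groups. It was Hsph1 in the ARG1+ library of m2, at 88.9 CPM, where the other ARG1+ libraries lay between 130 and 143 CPM. The gap took up 0.763 of the whole range, above the critical value of 0.71. The ARG1- library of m2 was also the lowest of its group, at 95.5 CPM. With both libraries of m2 left out, the blocked log2 fold change of Hsph1 was -0.36 (edgeR FDR 0.00145).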

How the results depend on the processing

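Without the block, 0 members were called lower. This became 2 by DESeq2, 3 with plain library totals, 6 with the animal as replicate block, 7 by limma-trend with that block, and 0 to 1 with single libraries or animals left out. Of all tested genes, 845 were lower without the block, 1307 by DESeq2, 1281 with plain totals, 2519 with the block and 2428 by limma-trend with it. Those called higher were 937, 1276, 705, 2307 and 2250 in the same order. With libraries or animals left out, 284 to 911 genes were lower. Chaperone list genes called higher went from 2 to 5 by DESeq2, 15 with the block, 14 by limma-trend with the block and 1 to 4 with libraries left out. Those called lower went from 2 to 4 by DESeq2, 5 with plain totals, 0 without a filter, 17 with the block, 16 by limma-trend with the block and 0 to 3 with libraries left out. With the block, leaving out animals gave 5 to 7 members lower, 5 to 18 list genes higher and 9 to 17 lower. In these fits 1478 to 2706 of all tested genes were higher and 1612 to 2823 lower. Plain totals with the block gave 8 list genes higher (9 members lower), where 1810 of all tested genes were higher and 3219 lower. No member or chaperone list gene passed both the FDR limit and an absolute log2 fold change above 1 (0 in each fit). Plain totals also turned the split of all calls from 937 higher and 845 lower to 705 and 1281 (with the block, from 2307 and 2519 to 1810 and 3219), with a median shift of -0.04 on the log2 scale. For single members, 247 alternative values were set against the fit without the block. Of these, 223 kept their side of the threshold and direction, 21 newly passed and 3 changed sign. The alternatives included the edgeR and limma-trend fits with the block, which gave 6 and 7 of the 21 new passes. The sign changed for Hspa1a (0.01 when the m2 ARG1+ library was dropped and 0.054 when m234 ARG1- was, in a range of -0.51 to 0.054) and Hspd1 (0.00102 when m234 ARG1+ was dropped, in a range of -0.064 to 0.00102). Of 97 alternative values set against the blocked fit, 86 kept side and direction, 8 newly passed and 3 no longer passed (Hspa1b without m2, Hspe1 without m2 or m6). Other library sizes, filters and left-out animals within the blocked fit, the added rows and the animal test were chosen after seeing the data. The cause of these changes was not tested.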
